A study of Mus musculus with 48 samples.

Results

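The cytosolic ribosomal protein genes were taken as every protein-coding gene of the GENCODE M21 annotation whose symbol begins with Rps or Rpl, leaving out the Rps6k kinases, Rps19bp1 and Rps3a3. This gave 91 genes of 34932 in the deposited quantification, on 20 chromosomes. They were grouped by role into 31 core genes of the small subunit, 43 core genes of the large subunit, the 3 P-stalk genes Rplp0, Rplp1 and Rplp2, 8 paralogs and 6 protein-coding genes that carry a retrocopy symbol such as Rpl10-ps3. The label fits the values: Rplp0, Rps3 and Rpl13a had median levels of 1570, 828 and 2458 TPM (a level scaled for transcript length and library size) over 48 libraries.

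RNA was sequenced from immune cells of C57BL/6J mice aged 6 to 10 weeks that carried subcutaneous B16F10 melanomas, a transplantable mouse melanoma line. The mice were WT or Yap-cKO, in which floxed Yap, a transcriptional coregulator of the Hippo pathway, was deleted by Cre under the Cd4 promoter together with activation of an EYFP reporter; littermates served as controls. Tumor-infiltrating leukocytes (TILs) and cells of the tumor-draining inguinal lymph nodes (TDLNs) were sorted into CD4 and CD8 T cells and into CD45+ cells that lack both coreceptors (CD45 cells), which gave 12 groups of 4 libraries. The comparisons ask how Yap loss in T cells, the tumor site and the cell type relate to expression. Because the Cre acts in the T lineage, Yap-cKO CD45 cells are largely outside its reach and are compared as cells from a mouse with altered T cells.

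The labels give only replicate numbers, so p-values measure the spread between these libraries, which may be technical. Libraries held 12656510 to 24213892 counts in genes. The sorted populations expressed their own markers, with summed T-lineage markers at 6610 to 13800 CPM (counts scaled to library size) in T-cell TDLNs, B-cell markers at 7960 to 9890 in CD45 TDLNs and myeloid markers at 19800 to 34300 in CD45 TILs. WT T-cell TILs stood apart, with 8 of 8 melanoma markers expressed and summed at 3870 to 17700 CPM and T-lineage markers at 1610 to 6330, against 38.9 to 2530 and 5790 to 10600 in Yap-cKO T-cell TILs and 7.5 to 13.5 for melanoma markers in T-cell TDLNs. Yap1 itself was at 12.96 to 27.3 CPM in WT T-cell TILs and at 1.63 to 6.37 in Yap-cKO T-cell TILs, but at only 1.13 to 4.53 in T-cell TDLNs of both genotypes, where it could not check the deletion. Which part of Yap is floxed is not given in the sources used here, and the WT T-cell TILs are also the libraries with the highest melanoma markers, so the TIL values check the deletion only in part. Y-linked transcripts were above 5 CPM in 3 or 4 of the 4 libraries of each WT group and in 0 (CD45 TILs) to 4 (CD45 TDLNs) of 4 in the Yap-cKO groups. The labels give no sex. The mix of sexes may have differed between groups, and its part in the differences was not tested.

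Each ribosome carries 1 copy of most of these proteins, and their genes are among the most strongly transcribed in a cell. Their messages begin with a terminal oligopyrimidine (TOP) tract, a C followed by a run of pyrimidines, through which mTORC1 and the RNA-binding protein Larp1 control translation, so protein output can change without the RNA level. Resting lymphocytes keep abundant messages of this kind, and activated T cells enlarge their ribosome pool as they grow.

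Rps27 had the highest level of the family, and its start is shown because it carries a tract of the TOP kind. In the 30 bases around its annotated RefSeq start (GRCm38.p6, chr3:90213634-90213663, minus strand), capitals mark the C and the pyrimidines that follow it. The next highest members with a promoter entry, Rpl13, Rpl37a, Rpl41 and Rps19, had no such tract within 5 bases of their annotated starts.

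Rps27 start: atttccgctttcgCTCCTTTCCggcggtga

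Of the 65 members with a promoter entry (250 bases before to 50 after the start), 46.2% had a C followed by at least 4 pyrimidines within 5 bases of the start, against 21.2% of 27025 genes. The letters CCGGAAG, on either strand, were found in 40.0% of these promoters and in 9.9% of all. GCCATNTT, on either strand, was in 13 of the 65 and in 7.0% of all, and TATAAA on the sense strand in 9.2% and 9.8%. These are matches of letters and not sites of binding. The 47-base windows shown are from the 4 members of highest median TPM with CCGGAAG, on either strand, in the 250 bases before the start. The motif is in capitals.

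Rpl41 (chr10:128549198-128549244, minus strand, 56 bases before the start): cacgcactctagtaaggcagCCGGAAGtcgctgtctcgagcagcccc
Rps25 (chr9:44407621-44407667, plus strand, 73 bases before the start): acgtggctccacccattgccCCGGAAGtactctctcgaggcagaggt
Rps18 (chr17:33955714-33955760, minus strand, 75 bases before the start): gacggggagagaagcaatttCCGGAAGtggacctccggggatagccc
Rpl19 (chr11:98026651-98026697, plus strand, 39 bases before the start): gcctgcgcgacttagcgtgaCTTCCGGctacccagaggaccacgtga

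The clearest difference between tumor and node lay in a gene pair, Rps27 and Rps27l. Rps27 (chr3:90212522-90213651, minus strand) encodes a zinc-finger protein of the small subunit, Rps27l (chr9:66946086-66949516, plus strand) its p53-inducible paralog, and Rps27rt (chr9:114982366-114982739, minus strand) is a retrogene of Rps27. The coding sequences of Rps27 and Rps27l, from the GENCODE M21 transcripts, are shown because they tell whether reads can be assigned to the right gene. Capitals mark the 61 of 255 bases at which Rps27l differs from Rps27, an identity of 76.1%. The Rps27rt coding sequence was identical to that of Rps27 (100%), so reads of that pair could be split between them.

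Rps27 coding sequence: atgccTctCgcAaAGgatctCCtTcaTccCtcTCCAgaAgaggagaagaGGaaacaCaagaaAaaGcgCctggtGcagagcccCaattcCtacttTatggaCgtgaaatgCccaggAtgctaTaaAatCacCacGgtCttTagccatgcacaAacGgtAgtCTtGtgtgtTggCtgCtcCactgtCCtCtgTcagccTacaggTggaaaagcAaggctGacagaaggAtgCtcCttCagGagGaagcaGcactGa
Rps27l coding sequence: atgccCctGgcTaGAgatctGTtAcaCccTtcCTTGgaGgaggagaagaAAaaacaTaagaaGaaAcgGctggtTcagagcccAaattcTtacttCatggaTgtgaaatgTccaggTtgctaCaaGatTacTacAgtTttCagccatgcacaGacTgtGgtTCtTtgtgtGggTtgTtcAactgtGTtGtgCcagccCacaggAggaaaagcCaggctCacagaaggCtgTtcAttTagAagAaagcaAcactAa

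The family made up 4.08% of the gene counts of a library at the median and 1.95% to 8.17% over the 48 libraries. CD8 T cells of the WT TDLNs had the highest group mean, at 6.09% ± 1.80 (SD, n = 4), and Yap-cKO CD45 TILs the lowest, at 2.39% ± 0.40. Measured as a share of TPM, the median was 11.4%, since the members are short.

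CD4 TDLNs held 3.79%, 4.74%, 4.33% and 4.10% in WT and 5.93%, 4.58%, 3.70% and 3.66% in Yap-cKO. CD8 TDLNs held 6.50%, 5.87%, 8.17% and 3.81% in WT and 5.66%, 5.11%, 4.44% and 6.28% in Yap-cKO. CD45 TDLNs held 3.47%, 1.95%, 2.14% and 3.81% in WT and 2.95%, 3.02%, 4.34% and 3.94% in Yap-cKO. In each of these cell types the libraries of the 2 genotypes overlapped, and WT CD8 replicate 4 lay well below the other WT CD8 libraries.

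CD4 TILs held 5.01%, 4.07%, 4.49% and 3.45% in WT and 2.37%, 2.82%, 5.86% and 4.90% in Yap-cKO. CD8 TILs held 5.86%, 3.54%, 5.76% and 6.06% in WT and 3.73%, 4.50%, 4.38% and 7.15% in Yap-cKO. CD45 TILs held 4.22%, 2.90%, 3.24% and 2.62% in WT and 2.26%, 2.24%, 2.09% and 2.97% in Yap-cKO. The genotypes again overlapped in every cell type. A share of bulk RNA cannot tell fewer cells of a type from less ribosomal protein RNA per cell.

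**Figure D1:**
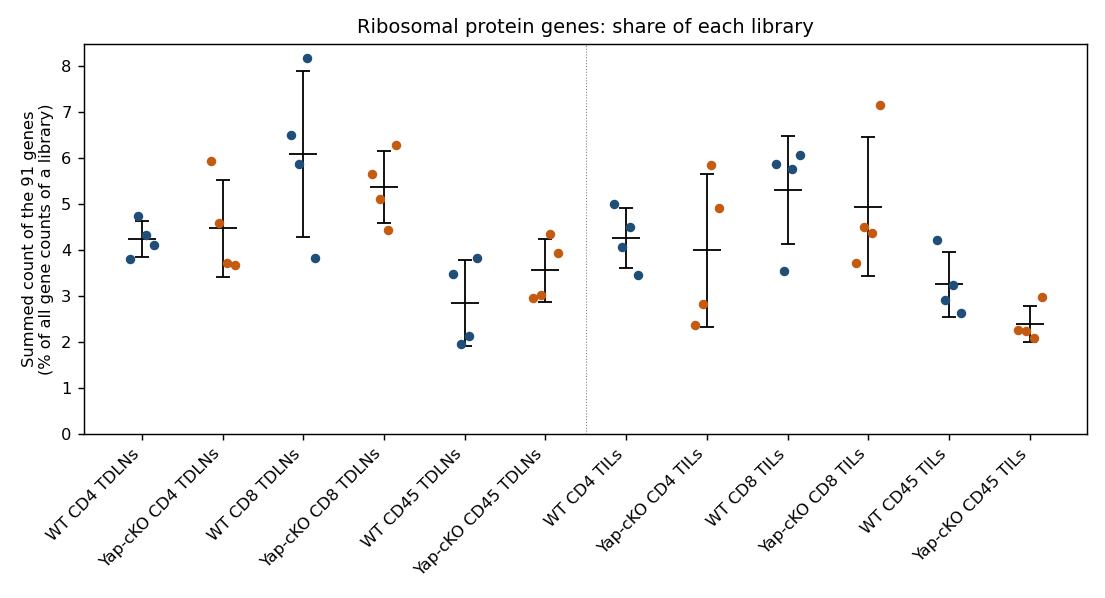
Summed counts of the 91 ribosomal protein genes as a percentage of all gene counts (vertical axis, linear from 0) in each library of the 12 groups (horizontal axis), with blue points for WT, orange points for Yap-cKO and black bars for the mean and SD of 4 libraries. The groups overlap widely, with group means from 2.39% to 6.09% and CD8 T cells above CD45 cells in both tissues.

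By class, small-subunit core genes supplied 42.3% ± 1.1 of the family's counts (SD over 48 libraries), large-subunit core genes 49.3% ± 1.1 and the P-stalk 5.89% ± 0.81. The paralogs supplied 1.73% ± 0.62, between 0.804% and 3.22%.

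By level, 81 members had a median above 100 TPM and 41 above 1000. Among the highest were Rps27 at 7256 TPM, Rps29 at 4002, Rpl32 at 3850 and Rpl13 at 3770. Rpl10l, Rpl36-ps4, Rpl36a-ps1, Rpl9-ps1 and Rpl9-ps6 had a median of 0 TPM. Rpl10l is a testis-expressed paralog of Rpl10. The paralogs Rpl3l, best known from striated muscle, and Rpl39l followed at 0.252 and 0.692 TPM. Rpl5, which with Rpl11 and 5S rRNA can bind Mdm2, was listed at only 31.4 TPM and Rpl12, a protein of the stalk base, at 45.4.

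Many members have processed copies elsewhere in the genome, and 590 annotated copies matched 81 of the members at an identity of at least 95% over at least 50% of their length. A level such as that of Rpl5 or Rpl12 is therefore uncertain, because the quantification could split reads among the copies. Of the 91 members, 84 passed the count filter in all 19 comparisons and 3 (Rpl9-ps6, Rpl3l and Rpl39l) in some of them. The 4 that passed in none were Rpl10l, Rpl36-ps4, Rpl36a-ps1 and Rpl9-ps1.

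TILs were compared with TDLNs in 6 library sets that share no library, to ask which members differ at the tumor site. Rps27l was higher in TILs in all 6, the only member to pass an adjusted p of 0.05 in the same direction throughout. Its call in Yap-cKO CD8 cells depended on single libraries and on the scaling, as given below. Over the 12079 genes tested in all 6 sets, 4.82% were called higher in every set and 2.17% lower in every set. The core genes mostly did not pass in T cells. In CD45 cells the direction of their median differed between genotypes, at a log2 fold change of 0.40 over all members tested in WT and −0.31 in Yap-cKO. All genes were at −0.08 and −0.09. The signs depended on the scaling. With libraries scaled on genes under 1000 bases both medians were negative, at −0.33 in WT and −0.74 in Yap-cKO. All genes were then at −0.91 and −0.55. On both scales the median member lay above all genes in WT and below them in Yap-cKO.

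In CD4 TDLNs of WT mice Rps27l was at 73.1, 68.4, 68.9 and 48.4 CPM and in CD4 TILs at 406, 297, 245 and 181. In WT CD8 cells it was at 92.9, 75.8, 106 and 46.6 CPM in TDLNs and at 384, 213, 190 and 360 in TILs. In WT CD45 cells the TDLNs had 121, 43.6, 69.04 and 87.3 CPM and the TILs 390.5, 263, 387 and 277.5. All 12 WT TIL libraries lay above all 12 WT TDLN libraries. The log2 fold changes were 2.12 (SE 0.26), 1.87 (SE 0.35) and 1.99 (SE 0.33), with edgeR adjusted p of 5.01e-05, 0.0014 and 0.000771.

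In Yap-cKO CD4 cells Rps27l was at 58.3, 52.6, 31.3 and 50.03 CPM in TDLNs and at 102, 109, 288 and 166 in TILs. In Yap-cKO CD8 cells it was at 68.7, 55.9, 36.5 and 114 CPM in TDLNs and at 79.7, 163, 170 and 155 in TILs, where TIL replicate 1 lay below TDLN replicate 4. In Yap-cKO CD45 cells it was at 54.95, 65.5, 73.2 and 94.99 CPM in TDLNs and at 378.5, 246, 236 and 283 in TILs. CD4 and CD45 cells did not overlap between tissues and CD8 cells did. The log2 fold changes were 1.80 (SE 0.38), 1.13 (SE 0.35) and 1.93 (SE 0.22), with edgeR adjusted p of 0.0076, 0.0439 and 2.66e-05. Leaving out any of the 8 libraries kept the call in the other 5 sets. In Yap-cKO CD8 cells it held only without TILs replicate 1 or TDLNs replicate 4, and the log2 fold change ranged from 0.95 to 1.48. With libraries scaled on genes under 1000 bases the Yap-cKO CD8 call was also lost, while the other 5 were kept.

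Rps27 was lower in TILs in 3 of the 6 sets. In WT CD4 cells it was at 1002, 1330, 1187 and 964.5 CPM in TDLNs and at 541, 657, 818.5 and 466 in TILs, with no overlap and a log2 fold change of −0.85 (SE 0.25, edgeR adjusted p 0.0139). The call was lost without TILs replicate 2 or TILs replicate 4, within a range of −0.93 to −0.69. In WT CD8 cells TDLNs had 2062, 1772, 3043 and 828 CPM and TILs 613, 455, 1032 and 949, with TDLNs replicate 4 inside the TIL range, and the log2 fold change was −1.32 (SE 0.44, edgeR adjusted p 0.0291). That call held only without TDLNs replicate 2, TDLNs replicate 4 or TILs replicate 3, within −1.59 to −0.97.

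In Yap-cKO CD45 cells Rps27 was at 1063, 1130, 1921 and 1712 CPM in TDLNs and at 514.5, 519, 411 and 684 in TILs. The ranges did not overlap, and the log2 fold change of −1.51 (SE 0.25, edgeR adjusted p 0.000388) was called without each library in turn. Rps27rt was also called lower in WT CD4 cells, at −0.69 (SE 0.20, edgeR adjusted p 0.0133), and in Yap-cKO CD45 cells, at −1.21 (SE 0.30, edgeR adjusted p 0.00516). The WT CD4 call of Rps27rt was lost without TILs replicate 2, 3 or 4, within −0.76 to −0.55.

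The ratio of Rps27l to Rps27 and Rps27rt does not depend on how libraries are scaled to each other. Rps27l made up 5.17%, 4.03% and 6.98% of the summed CPM of these genes in CD4, CD8 and CD45 TDLNs of WT mice and 29.7%, 26.7% and 28.3% in the TILs. In Yap-cKO mice it made up 3.47%, 3.92% and 4.59% in the TDLNs and 16.4%, 12.8% and 33.5% in the TILs. No TIL library overlapped with a TDLN library in any set, with ratios 7.67, 8.37 and 5.34 times higher in WT TILs and 5.56, 3.47 and 10.5 times higher in Yap-cKO TILs. Each two-sided exact permutation test gave p = 0.0286, the smallest that 4 against 4 libraries allow, and 0.0429 after Benjamini-Hochberg adjustment over 18 such tests of paralog ratios between tissues. These ratio tests were chosen after the values had been seen.

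Marker genes of tumor cells, cycling cells and naive T cells differed between these groups as well. The TIL libraries with the highest Rps27l shares among T cells, WT CD4 replicate 1 at 40.7% and WT CD8 replicate 1 at 36.0%, had melanoma markers summed at 17700 and 13900 CPM, the highest of their groups. In WT CD4 TILs replicates 2, 4 and 3 followed in the same order, at 29.7%, 26.5% and 22.0% with 13000, 8010 and 5660 CPM. WT CD8 replicate 3 was lowest of its group in both, at 14.7% and 3870 CPM. Yap-cKO CD8 replicate 1 was lowest of all T-cell TILs in both, at 8.27% and 38.9 CPM. The remaining CD8 libraries did not rank alike within their groups. In Yap-cKO CD4 TILs replicate 3 went the other way, with the highest markers, 2350 CPM, and the lowest share, 14.1%. Yap-cKO CD45 TILs had shares of 28.0% to 40.2% with melanoma markers at 119 to 491 CPM. WT CD45 TILs had shares of 25.5% to 30.8% with markers at 1050 to 1770. Cycling markers were also higher in T-cell TILs, at 187 to 1200 CPM against 36.8 to 198 in T-cell TDLNs, and naive T-cell markers lower, at 506 to 3590 against 6640 to 14400. The part of the tumor-cell, cycling and naive T-cell markers in the result was not tested.

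**Figure D2:**
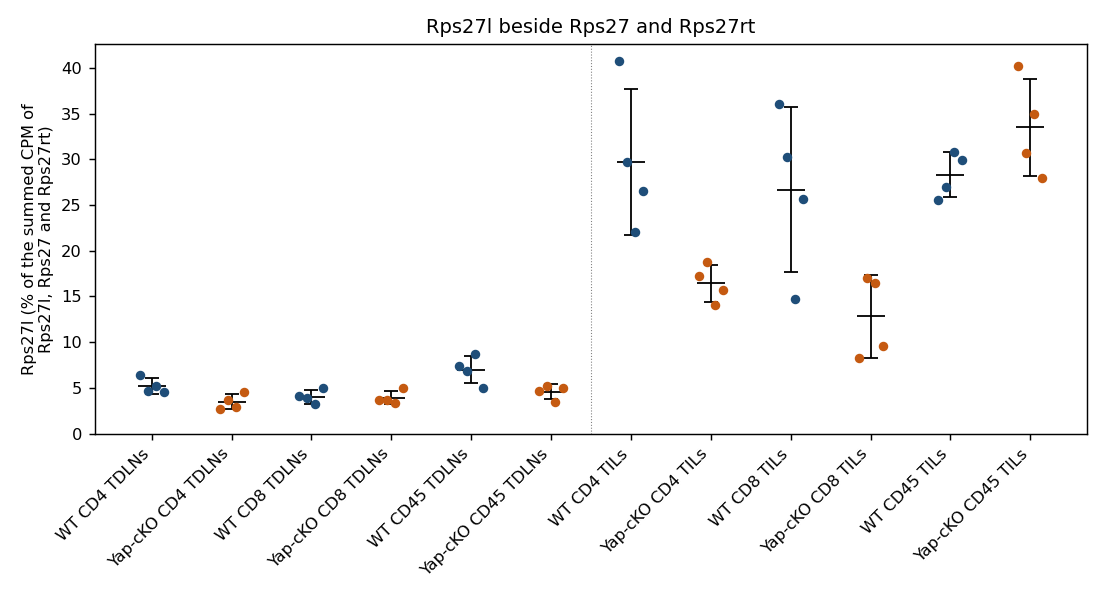
Rps27l as a percentage of the summed CPM of Rps27l, Rps27 and Rps27rt (vertical axis, linear from 0) in each library of the 12 groups (horizontal axis), with blue points for WT, orange points for Yap-cKO and black bars for the mean and SD of 4 libraries. All TDLN groups average between 3.47% and 6.98%, and the TIL groups average between 12.8% and 33.5%.

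Rpl36al (chr12:69182731-69184083, minus strand) is an autosomal paralog of the X-linked Rpl36a (chrX:134585654-134588062, plus strand), with coding sequences 87.9% identical. It was called higher in TILs in 4 of the 6 sets. In WT CD4 cells it was at 120.5, 157, 136 and 142 CPM in TDLNs and at 358, 261, 245 and 213 in TILs. In WT CD8 cells it was at 164, 148, 192 and 139 in TDLNs and at 384, 216, 267 and 352 in TILs, and in neither cell type did the tissues overlap.

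The log2 fold changes were 0.95 (SE 0.21, edgeR adjusted p 0.00331) in WT CD4 and 0.96 (SE 0.28, edgeR adjusted p 0.0148) in WT CD8 cells. In CD45 cells they were 1.20 (SE 0.26, edgeR adjusted p 0.00333) in WT and 0.95 (SE 0.18, edgeR adjusted p 0.0012) in Yap-cKO. The WT CD8 call was lost without TDLNs replicate 2, with 0.90 and an adjusted p of 0.0512. Scaling on genes under 1000 bases brought the WT values to 0.26, 0.41 and 0.43 with no call, while the Yap-cKO CD45 call was kept. On that scale the medians of all genes were −0.70, −0.57 and −0.91 in the WT sets, and Rpl36al stayed above them.

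As a ratio, Rpl36al to Rpl36a was higher in TILs in all 6 sets with no overlap, by 1.36, 1.38 and 0.75 on the log2 scale in WT CD4, CD8 and CD45 cells and by 0.92, 0.90 and 1.41 in Yap-cKO (exact permutation p = 0.0286, adjusted 0.0429 in each). The ratio of Rpl22l1 to Rpl22, a pair with 66.9% identical coding sequences, gave adjusted p between 0.119 and 0.714 and overlapping libraries. Between genotypes none of 18 ratio tests passed after adjustment. The lowest p of those was shared by the Rps27l ratio in CD4 TILs and in CD4 TDLNs, lower in Yap-cKO by −1.08 and −0.62 on the log2 scale with no overlap (exact permutation p = 0.0286, adjusted 0.193 in each).

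In WT CD4 cells 4 of 84 members were called higher in TILs and 5 lower, where 26.8% of all genes tested were called higher and 20.3% lower. Besides Rps27l and Rpl36al, Rpl38 rose by 0.89 (SE 0.23, edgeR adjusted p 0.00687), from 158.6, 206.5, 176 and 148 CPM to 419.5, 310.5, 326 and 225.5. Rpl38 is a large-subunit protein known for a role in translating Hox messages. Rpl27 rose by 0.93 (SE 0.28, edgeR adjusted p 0.0151). Rps20 fell by 0.65 (SE 0.23, edgeR adjusted p 0.0326), with TDLNs at 344, 460, 420 and 372 CPM and TILs at 318, 232, 287 and 184, all lower. Rpl3, the protein nearest the peptidyl transferase centre, fell by 0.72 (SE 0.24, edgeR adjusted p 0.0248). Leaving out 1 library changed the 9 calls to 4 without TILs replicate 2, 5 without TILs replicate 3 and 5 without TILs replicate 4.

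In WT CD8 cells 2 of 84 members were called higher in TILs and 3 lower, against 24.5% and 18.8% of all genes. Rplp0, the scaffold of the P-stalk that recruits elongation factors, was at 3292, 2934, 4924 and 1316 CPM in TDLNs and at 1404, 860, 1427 and 1678 in TILs. Only TDLNs replicate 4 lay among the TIL values. The log2 fold change was −1.20 (SE 0.43, edgeR adjusted p 0.0422), beside −0.93 for Rpl3 (SE 0.35, edgeR adjusted p 0.0496). Both calls held only without that library, and then 29 members were called, 2 higher and 27 lower. Without each of the other 7 libraries 2 or 3 members were called.

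Rplp0 was also lower in WT CD4 TILs, at −0.70 (SE 0.26, edgeR adjusted p 0.0412), from 1955, 2302, 2221 and 1351 CPM to 1386, 1189, 1347 and 910, and in Yap-cKO CD8 TILs, at −0.84 (SE 0.27, edgeR adjusted p 0.048). In WT CD4 cells the tissues overlapped, and the call held only without TDLNs replicate 4 or TILs replicate 1, within −0.83 to −0.53. In Yap-cKO CD8 cells it held only without TDLNs replicate 3, within −1.01 to −0.67. Its partners Rplp1 and Rplp2 were not called in any of the 6 sets, with log2 fold changes from −0.56 to 0.44.

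In Yap-cKO CD4 cells Rps27l was the only member of 84 called higher and 0 were lower, where 12.5% and 6.55% of all genes were. In Yap-cKO CD8 cells 1 of 84 was higher and 3 were lower, against 12.2% and 7.78% of all genes. Beside Rplp0 these were Rpl3 at −0.72 (SE 0.22, edgeR adjusted p 0.0402) and Rpl10, a protein that joins the large subunit late in assembly, at −0.69 (SE 0.21, edgeR adjusted p 0.0391). The 4 calls fell to 0 without TDLNs replicate 1, TDLNs replicate 2, TILs replicate 2 or TILs replicate 3, to 1 without TDLNs replicate 4 and to 2 without TILs replicate 1.

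Other scalings moved all genes in WT T cells and the members with them. With libraries scaled on T-lineage genes, so that values are per unit of T-lineage RNA, the median of all genes moved to 1.61 in WT CD4 and 1.71 in WT CD8 cells, and Rps27 was then at 0.76 and 0.36, Rplp0 at 1.08 and 0.60 and Rpl3 at 1.06 and 0.83, in the opposite direction but below their respective all-gene medians. Rps27l stayed above those medians, at 4.02 and 3.76. With libraries scaled on genes under 1000 bases, the all-gene medians were −0.70 and −0.57, and 68 members in WT CD4 and 63 in WT CD8 cells were called lower in TILs with 1 (Rps27l) higher in each. On that scale 44.3% and 31.2% of all genes were called lower and 17.5% and 17.2% higher.

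**Figure D3:**
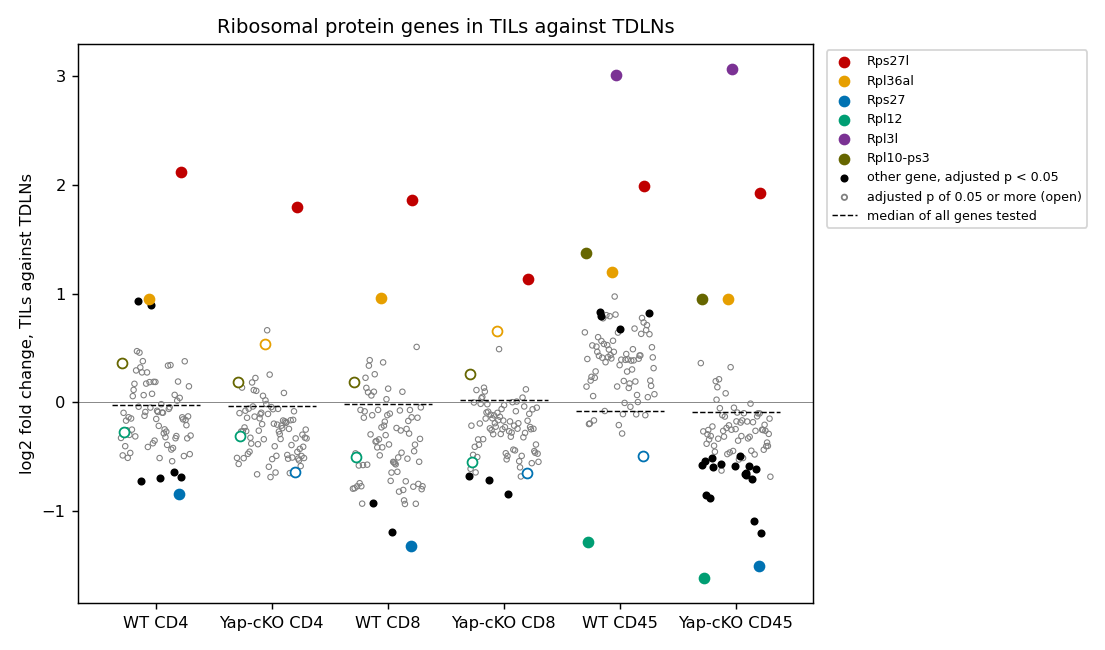
Log2 fold change of TILs against TDLNs (vertical axis) for every tested ribosomal protein gene in the 6 library sets (horizontal axis), with filled symbols for an adjusted p under 0.05, colours for 6 named genes and dashed lines for the median of all genes tested. Rps27l lies between 1.13 and 2.12 in every set, Rpl3l, which passed the count filter only through the CD45 TILs, near 3 and Rpl12 at −1.29 and −1.62 in CD45 cells.

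CD45 cells of the TDLNs were B-cell rich and those of the TILs myeloid, so a tissue difference in them cannot be told apart from a change of cell type. In Yap-cKO CD45 cells it also cannot be told apart from a difference in Y-linked transcripts. These were above 5 CPM in all 4 TDLN libraries and in 0 of the TIL libraries. In WT CD45 cells 8 of 85 members were called higher in TILs and 1 lower, against 25.8% and 23.7% of all genes. In Yap-cKO CD45 cells 4 were called higher and 19 lower, against 28.0% and 27.9% of all genes. The higher calls include Rpl3l in each genotype, which is no support, as given below. Leaving out a library gave 5 calls (WT TDLNs replicate 3, TILs replicate 1 or TILs replicate 3) to 16 (WT TDLNs replicate 4) in WT. In Yap-cKO the calls dropped to 9 without TILs replicate 1 or 3 and to 10 without TILs replicate 2.

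Rpl3l (chr17:24727820-24736143, plus strand), whose coding sequence is 73.3% identical to that of Rpl3, was at 2.85, 1.20, 1.88 and 1.96 CPM in WT CD45 TILs and at 1.45, 1.05, 1.04 and 2.94 in Yap-cKO CD45 TILs. No library of CD45 TDLNs was above 0.504 CPM and no T-cell library above 0.909, so CD45 TILs stood above all other groups. It passed the count filter only through the CD45 TILs, where it is high, so it had to differ in the comparisons that hold them, and its fitted log2 differences from TDLNs, 3.02 in WT and 3.06 in Yap-cKO, are given without a test. Its level was still small beside Rpl3, at 650 to 1031 CPM in WT CD45 TILs.

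Rpl12 (chr2:32961559-32965345, plus strand) was at 62.0, 31.2, 45.9 and 51.0 CPM in WT CD45 TDLNs and at 25.8, 15.6, 22.5 and 16.4 in the TILs. In Yap-cKO it was at 38.8, 39.2, 56.9 and 70.1 in the TDLNs and at 18.01, 13.8, 16.6 and 21.1 in the TILs. All TIL libraries lay below all TDLN libraries in each genotype. The log2 fold changes were −1.29 (SE 0.28, edgeR adjusted p 0.00357) and −1.62 (SE 0.24, edgeR adjusted p 0.000198). With the counts of its near-identical copies added, they were −0.20 (adjusted p 0.62) in WT and −1.09 (adjusted p 0.0019) in Yap-cKO.

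Rpl10-ps3 (chr9:50344201-50344968, minus strand) is an intronless gene with a coding sequence 100% identical to that of the X-linked Rpl10 (chrX:74270812-74273135, plus strand), so the division of reads between this pair is uncertain. It was at 139.9, 87.1, 161 and 178 CPM in WT CD45 TDLNs and at 408.5, 341, 429 and 335 in the TILs, with log2 fold changes of 1.37 (SE 0.27, edgeR adjusted p 0.00177) in WT and 0.95 (SE 0.23, edgeR adjusted p 0.00487) in Yap-cKO. TILs were higher in every library of both genotypes. Rpl10 itself was not called, at 0.64 and 0.36.

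The other members called higher in WT CD45 TILs were Rpl7 at 0.67 (SE 0.24, edgeR adjusted p 0.039), Rpl26 at 0.79 (SE 0.28, edgeR adjusted p 0.0396), Rps3a1 at 0.82 (SE 0.24, edgeR adjusted p 0.0155) and Rpl24 at 0.83 (SE 0.29, edgeR adjusted p 0.0335). Rpl26 is known for binding the p53 message. On the scale of short genes, where the all-gene median was −0.91, Rpl7 and Rps3a1 were at −0.15 and −0.01 with no call. Rpl7 held only without TILs replicate 2 or 4, within 0.50 to 0.81. Rpl26 was lost without TDLNs replicate 2 or 3 or TILs replicate 1 or 3, within 0.62 to 0.93, and Rps3a1 without TDLNs replicate 3, within 0.65 to 0.96.

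In Yap-cKO CD45 cells the 19 members that fell included 7 of 31 small-subunit core genes and 9 of 43 large-subunit core genes. Beside Rpl12, Rps27 and Rps27rt they included Rps20 at −1.10 (SE 0.25, edgeR adjusted p 0.0036) and Rpl13a at −0.85 (SE 0.23, edgeR adjusted p 0.00814). Rpl13a, a large-subunit protein that also serves in the GAIT complex that silences inflammatory messages, was at 472, 501, 830.5 and 713 CPM in TDLNs and at 368, 332, 296 and 456 in TILs, with no overlap. Rps3 at the mRNA entry site, Rpsa, also known as the laminin receptor, and Rpl11 were not called, at −0.44, −0.69 and −0.27. Rpl5 was called at −0.59, a call that adding its copies removed (−0.13, adjusted p 0.549) and that held only without TDLNs replicate 3 or 4. A further 12 fell by 0.50 to 0.71.

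In WT TDLNs many ribosomal protein messages were lower in CD45 cells than in T cells. Of 85 members 33 were called lower and 0 higher, where 15.2% of all genes tested were called lower and 17.1% higher, and the median member was at −0.78 against −0.02 for all genes. The calls covered 12 of 31 small-subunit core genes, 17 of 43 large-subunit core genes, Rplp0 and Rplp1 of the P-stalk and the paralog Rpl22l1.

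Rps7, a small-subunit protein that can bind Mdm2, was at 551, 673, 639 and 588 CPM in CD4 cells, at 951, 886, 1220 and 525 in CD8 cells and at 439.5, 227, 250 and 428 in CD45 cells. All CD45 libraries lay below all T-cell libraries, and the log2 fold change was −1.12 (SE 0.27, edgeR adjusted p 0.00524). Rplp0 differed by as much but with more spread, at −1.12 (SE 0.37, edgeR adjusted p 0.0316), and Rplp1 by −1.10 (SE 0.39, edgeR adjusted p 0.0462). Rpsa was at −1.02 (SE 0.36, edgeR adjusted p 0.0456) and Rpl32 at −1.01 (SE 0.32, edgeR adjusted p 0.0252).

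The smallest called differences belonged to Rpl4 at −0.76 (SE 0.17, edgeR adjusted p 0.00278), Rpl7 at −0.73 and Rpl21 at −0.72 (SE 0.20, edgeR adjusted p 0.0149). Rpl22l1 was at −0.82 (SE 0.17, edgeR adjusted p 0.0022), with 44.95 to 62.6 CPM in CD45 cells and 66.5 to 112.9 in T cells. CD8 and CD4 libraries with the same replicate number deviated together (correlations of 0.411 to 0.818), while CD45 libraries did not pair with them (−0.475 to 0.3). With the replicate as a block 21 members were called lower, where 15.2% of all genes were, and Rplp1 (adjusted p 0.0842) and Rpsa (adjusted p 0.111) were not among them. Leaving out 1 library at a time gave 10 calls without CD45 replicate 2 or 3 and 61 without CD8 replicate 4. Rplp0 was lost without CD4 replicate 3 or CD45 replicate 2, 3 or 4, within −1.33 to −0.87. Rplp1 held only without CD8 replicate 4, CD4 replicate 4 or CD45 replicate 4, within −1.40 to −0.84.

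CD8 cells of the WT TDLNs had more ribosomal protein RNA than CD4 cells in 84 of 85 members, with a median of 0.65 against 0.02, but 0 were called by edgeR at an adjusted p under 0.05, where 3.88% of all genes were. At an unadjusted p under 0.05, 32 members were higher and 0 lower, against 6.0% of all genes that were higher. The members rose and fell together from library to library, as given below, so such counts of members are not independent results. The family's share in CD8 replicate 4, 3.81%, lay within the CD4 range of 3.79% to 4.74%. The replicate numbers paired these libraries, and with the replicate as a block 7 members were called higher, namely Rpl13, Rps18, Rps25, Rpl12, Rpl38, Rpl35 and Rpl27, at 0.58 to 0.74, where 5.87% of all genes were called higher with the block. Without CD8 replicate 4, 35 were called. DESeq2 called 0. The P-stalk genes Rplp0, Rplp1 and Rplp2 were at 0.68, 0.89 and 0.87, and Rps3 and Rpl13a at 0.70 and 0.66.

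In WT TILs CD8 and CD4 cells differed in 0 of 84 members by edgeR, where 0.119% of all genes were called. The median was 0.35, and 3 members were higher at an unadjusted p under 0.05, against 1.98% of all genes. DESeq2 called 0. CD45 TILs against T-cell TILs gave 3 of 85 members higher and 1 lower, against 21.9% and 23.8% of all genes. These were Rpl3l, which again passed the count filter only through the CD45 TILs and is given without a test (2.99), Rpl10 at 0.82 (SE 0.21, edgeR adjusted p 0.00517), Rpl10-ps3 at 0.75 (SE 0.20, edgeR adjusted p 0.00695) and Rpl12 at −0.61 (SE 0.23, edgeR adjusted p 0.0469).

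Rpl10 was at 623, 416, 455 and 394 CPM in WT CD45 TILs, at 315, 265.5, 294 and 203.5 in CD4 TILs and at 351, 209, 251 and 362 in CD8 TILs. The CD45 libraries lay above all T-cell libraries. The call of Rpl12 was lost when its copies were added (−0.52, adjusted p 0.0977) and held only without CD4 TILs replicate 4, CD8 TILs replicate 2 or 3 or CD45 TILs replicate 1. With the replicate as a block, which the numbers justified here, 8 members were called, 4 higher and 4 lower, where 25.6% and 27.7% of all genes were. Rps9 was added among the higher and Rpl22l1, Rpl30 and Rpl27 among the lower.

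Between genotypes, no member passed an adjusted p of 0.05 by edgeR in any of the 6 comparisons. In TILs the share of all genes called was 8.02% in CD4, 13.3% in CD8 and 1.1% in CD45 cells. In TDLNs it was 0.0462%, 0.0158% and 0.0596%. At an unadjusted p under 0.05, 0 of 84 members were lower in CD4 TILs, 2 of 85 in CD8 TILs and 17 of 85 in CD45 TILs, where 14.2%, 18.4% and 10.3% of all genes were lower, and 0 members were higher. All 85 members had a negative log2 fold change in CD45 TILs, with a median of −0.43 against 0.01 for all genes and a range of −0.75 to −0.02. Because the members move together between libraries, their shared sign is not a set of independent results. Y-linked transcripts were above 5 CPM in 3 WT and 0 Yap-cKO libraries of CD45 TILs, and their part was not tested.

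In TDLNs, 1 of 84 members was higher in CD4, 1 of 85 higher in CD8 and 9 of 84 higher in CD45 cells at an unadjusted p under 0.05, where 0.885%, 0.514% and 0.677% of all genes were higher, and 0 members were lower. DESeq2 called Rps27l and Rpl27 lower in Yap-cKO CD8 TILs, at −1.01 (DESeq2 adjusted p 0.0256) and −0.84 (DESeq2 adjusted p 0.0476), where it called 14.9% of all genes lower, and 1 member, Rps3a1, higher in Yap-cKO CD45 TDLNs, where it called 0.0298% of all genes higher. It called 0 in the other 4. The edgeR values for Rps27l in Yap-cKO TILs were −0.62 in CD4, −0.98 in CD8 and −0.24 in CD45 cells. WT and Yap-cKO T-cell TILs differed in melanoma and T-lineage markers as given above, and the part of this in these values was not tested. Scaled on T-lineage genes, where the all-gene median was −1.15 in CD4 and −1.12 in CD8 TILs, 10 members in CD4 and 68 in CD8 TILs were called lower in Yap-cKO, with medians of −1.43 and −1.28, where 25.3% and 40.4% of all genes were called lower on that scale. Without Yap-cKO CD4 TILs replicate 3, 2 members were called lower in CD4 TILs, and without WT CD8 TILs replicate 3, 1 in CD8 TILs.

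Rps3a1 (chr3:86137940-86142702, minus strand), a small-subunit gene, was the member whose libraries separated by genotype in every TDLN population. WT and Yap-cKO libraries were at 411, 456, 505 and 567 against 795, 953, 713 and 743 CPM in CD4 TDLNs. In CD8 TDLNs they were at 555, 498, 673 and 529 against 840, 959, 800 and 940. In CD45 TDLNs they were at 311, 270, 251 and 293 against 573, 574, 506 and 656. Yap-cKO was higher without overlap each time, with log2 fold changes of 0.72, 0.66 and 1.04 (SE 0.19, 0.19 and 0.17) and edgeR adjusted p of 0.97, 0.999 and 0.138. In TILs the values were −0.15, 0.08 and −0.02.

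The near-identical copies of Rps3a1 moved with genotype. Rps3a3, with 98.9% identity and outside the family as defined, was at 30.8 to 145 CPM in all 24 WT libraries and at 0.338 to 1.8 in all 24 Yap-cKO libraries. Its log2 fold changes ran from −6.87 to −5.67 over the 6 genotype comparisons, with edgeR adjusted p of 5.87e-06 to 0.000521. Gm7600, with 98.2% identity, was at no more than 0.336 CPM in WT and at 1.77 to 7.32 in Yap-cKO. Rps3a2, with 99.5% identity, overlapped between genotypes in TDLNs.

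With the counts of its 6 copies added, Rps3a1 in TDLNs had means of 770 CPM (WT) and 977 CPM (Yap-cKO) in CD4 cells, 892 and 1070 in CD8 cells and 451 and 706 in CD45 cells, and the log2 fold changes were 0.34, 0.27 and 0.65. The genotype difference was thus smaller in each population when the copies were counted with Rps3a1. Whether the mice of the 2 genotypes differ in sequence at these copies was not tested, so the Rps3a1 difference between genotypes is uncertain.

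**Figure D4:**
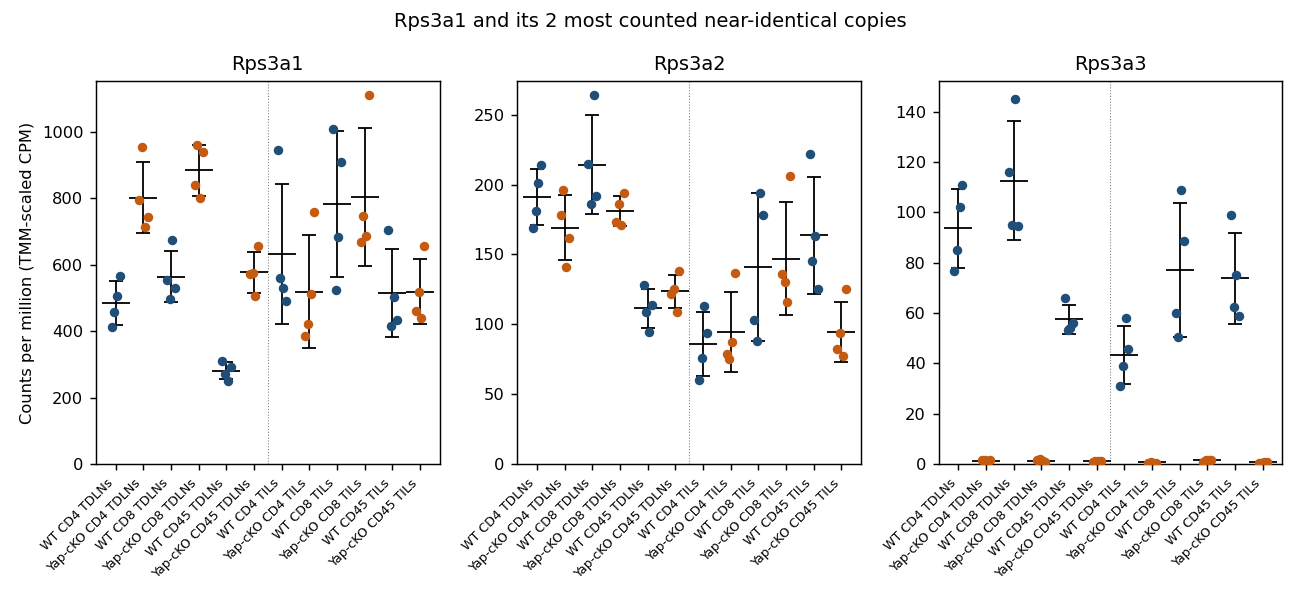
Level in CPM (vertical axes, linear from 0) of Rps3a1 and of its copies Rps3a2 and Rps3a3 in each library of the 12 groups (horizontal axes), with blue points for WT, orange points for Yap-cKO and black bars for the mean and SD of 4 libraries. Rps3a1 is higher in Yap-cKO than in WT in all 3 TDLN populations, while Rps3a3 is at 30.8 to 145 CPM in WT and at no more than 1.8 in Yap-cKO.

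Whether the TIL to TDLN difference itself changed with genotype was tested as an interaction in each cell type. No member of 86 passed in any cell type by edgeR, where 1.36% of all genes were called in CD4, 0.422% in CD8 and 0.0% in CD45 cells. At an unadjusted p under 0.05 there was 1 member with a negative term in CD4 cells (8.23% of all genes), 1 with a positive term in CD8 cells (5.21% of all genes) and 28 with a negative term in CD45 cells (4.47% of all genes). In CD45 cells 85 of 86 members had a negative term, with a median of −0.74 against 0.02, but members that move together do not count as independent results. The WT and Yap-cKO medians of opposite sign in CD45 cells given above are thus a tendency that no single member passed. On the scale of short genes the median term in CD45 cells was −0.43 against 0.35 for all genes, with 0 members called. Y-linked transcripts differed between the CD45 groups as given above, and their part was not tested. DESeq2 called 1 member in CD45 cells, Rps3a1 at −1.04 (DESeq2 adjusted p 0.0494), where it called 0.545% of all genes lower, and 0 in CD4 and CD8 cells. In simulated data for the CD4 interaction, 10.1% of genes with a log2 difference of 2 were recovered, so smaller interactions would rarely have been detected at this number of libraries.

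The machinery that makes and controls ribosomes was followed in the same comparisons, from lists that were set with earlier results known. Eif4ebp1, the mTORC1 target that binds and inhibits the cap-binding factor Eif4e, was higher in TILs in all 6 sets, at 4.02, 3.31 and 2.71 in WT CD4, CD8 and CD45 cells and at 2.52, 1.56 and 3.05 in Yap-cKO (edgeR adjusted p 3.68e-06 to 0.0129). In WT CD4 cells it was at 10.45, 14.35, 11.45 and 7.50 CPM in TDLNs and at 318, 159, 124 and 113 in TILs, with no overlap. It was lower in Yap-cKO than in WT CD8 TILs, at −1.95 (SE 0.43, edgeR adjusted p 0.0222). Melanoma markers summed to 3870 to 13900 CPM in WT CD8 TILs and to 38.9 to 2530 in Yap-cKO CD8 TILs. Their part in the Eif4ebp1 values, between genotypes and between tissues, was not tested. Of the 18 initiation genes, 2, 4 and 6 were called higher in TILs in WT CD4, CD8 and CD45 cells and 1, 2 and 7 in Yap-cKO, while 2, 1 and 1 and then 0, 0 and 2 were lower. Of all genes, 26.8%, 24.5% and 25.8% were called higher in the WT sets and 12.5%, 12.2% and 28.0% in the Yap-cKO sets. The shares called lower were 20.3%, 18.8% and 23.7% and then 6.55%, 7.78% and 27.9%. Eif2s2, the beta subunit of the factor that carries the initiator tRNA, was called higher in 5 sets, at 1.27 to 2.07.

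Of 30 ribosome biogenesis genes, between 5 and 13 were called lower in TILs in each set and at most 1 higher, with medians of −0.62 to −0.53. Polr1b, a subunit of RNA polymerase I, was lower in all 6 sets, at −1.54 to −0.65. Nop56, a core protein of box C/D snoRNPs, was lower in WT CD4, CD8 and CD45 cells, at −0.77, −0.70 and −1.24. Of 12 genes of mTORC1, Larp1 and Myc, 2 to 6 were lower in each set and 0 higher, among them Larp1 in WT CD4 and CD8 TILs, at −0.75 and −0.93, and Myc in WT and Yap-cKO CD45 TILs, at −2.68 and −2.36. Of all genes, 20.3%, 18.8% and 23.7% were called lower in WT CD4, CD8 and CD45 TILs and 6.55%, 7.78% and 27.9% in Yap-cKO. Between 12.2% and 28.0% were called higher.

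Of 16 other TOP messages, 3, 3 and 2 were called higher in WT CD4, CD8 and CD45 TILs and 0, 1 and 0 in Yap-cKO, while 1, 1 and 0 and then 0, 1 and 1 were lower. None of these counts exceeds the share of all genes called in that direction. Eef2, the translocation factor of elongation, was lower in WT CD4 and CD8 TILs, at −0.82 and −1.31, and in Yap-cKO CD8 and CD45 TILs, at −0.95 and −0.76. In WT TDLNs 6 of the 16 were lower in CD45 than in T cells, namely Eef1b2 at −1.02, Eef1a1 at −0.95, Pabpc1 at −0.89, Tpt1 at −0.88, Eif3h at −0.74 and Naca at −0.43, beside the 33 members. Of all genes tested 15.2% were called lower there. Fau and Rack1, ribosomal proteins with other symbols, were called in none of the 19 comparisons.

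Mitochondrial ribosomal protein genes serve the separate ribosome of that organelle. Of 49, 28, 20 and 19 were called higher in WT CD4, CD8 and CD45 TILs, where 26.8%, 24.5% and 25.8% of all genes were, and 7, 7 and 12 in Yap-cKO, where 12.5%, 12.2% and 28.0% were. WT T-cell TILs also held the melanoma markers given above, whose part in these counts was not tested. In the same sets 0, 0 and 1 and then 0, 0 and 4 were lower, where 20.3%, 18.8% and 23.7% and then 6.55%, 7.78% and 27.9% of all genes were. Their medians were 0.76, 0.61 and 0.40 in WT and 0.55, 0.28 and 0.28 in Yap-cKO. In Yap-cKO CD8 TILs 3 of the 49, namely Mrpl53, Mrpl12 and Mrpl51, were called lower than in WT, where 13.3% of all genes were called in either direction.

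The members rose and fell together from library to library. Within groups, the log2 CPM of the 84 members tested throughout correlated with the family's share of the library at a median of r = 0.95 over 48 libraries, from −0.33 for Rpl5 to 0.98. This is a description, since each member is part of that share. The small subunit, the large subunit and the P-stalk had medians of 0.96, 0.95 and 0.96. The paralogs had 0.74, with Rpl7l1 at 0.38. Rpl4, the large-subunit member beside the exit tunnel, had only 0.06. The mitochondrial ribosomal protein genes, which are no part of the share, had a median of 0.68, while initiation genes had −0.36 and ribosome biogenesis genes −0.10.

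Transcript length moved with this variation. The members are 347 to 2606 bases long, with a median of 667 against 2031 for all protein-coding genes, and 77 are under 1000 bases. Other protein-coding genes under 500 bases had a median r of 0.65 with the family's share and those of 500 to 1000 bases 0.56. Genes of 1000 to 2000 bases had 0.21, those of 2000 to 4000 bases −0.17 and longer ones −0.36. The family's share and the share of all other short genes, each less its group mean, had a Pearson r of 0.90 and a Spearman rho of 0.92 over 48 libraries, and 0.89 by Pearson after the 2 libraries farthest from the median were left out. The points share library and depth. SMART-Seq amplifies full-length cDNA, and the part of length in the group differences was not tested beyond the scaling on short genes given above.

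**Figure D5:**
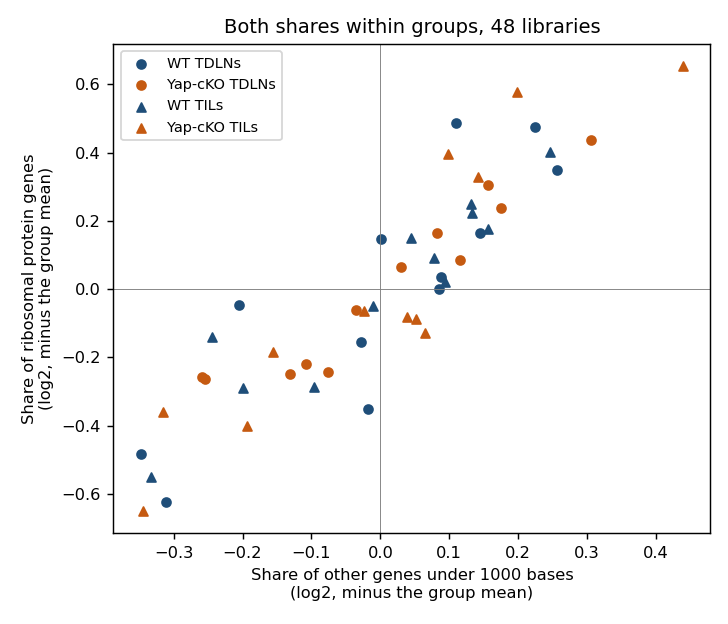
Share of the ribosomal protein genes (vertical axis) against the share of all other genes under 1000 bases (horizontal axis), both as log2 of the percentage of gene counts minus the mean of the library's group, for 48 libraries. Blue marks WT, orange Yap-cKO, circles TDLNs and triangles TILs, and the points follow a rising line (Pearson r = 0.90) in both tissues and genotypes.

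Within a gene, the share of counts that fell on each annotated transcript also differed between tissues. Of 118 transcripts of 46 members with at least 200 gene counts in every library and a mean share of 5% to 95%, 13 transcripts of 10 members did not overlap between TILs and TDLNs and moved the same way in all 6 sets, where 0.996% of 9640 transcripts did. Rps19-202 took 11.7%, 10.4% and 10.3% of the Rps19 counts in CD4, CD8 and CD45 TDLNs of WT mice and 27.5%, 27.7% and 20.5% in the TILs. In Yap-cKO mice it went from 10.8%, 9.87% and 9.82% to 21.1%, 22.8% and 18.6%. Transcripts of Rpl21, Rpl28, Rpl31, Rpl35, Rpl37, Rpl41 and Rps27a were also higher in TILs. Those lower in TILs included Rpl21-201, Rpl28-201, Rpl35-201 and Rps16-201. These transcripts were chosen after their values had been seen, and the shares depend on how reads common to several transcripts were divided.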

How the data were processed

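The authors sorted live cells into TRIzol LS, isolated RNA with miRNeasy, prepared SMART-Seq v4 libraries from low input and sequenced paired reads of 75 bases on a HiSeq 4000. The submitters' processing notes name FastQC, Trimmomatic, Salmon 0.9.1 and mm10. Salmon output was deposited separately for every library, and 0 columns of other samples were present. Its expected counts per transcript, as the authors deposited them, are not normalized. The deposited TPM of each transcript was made by Salmon from effective length and library size, and was used here for levels only.

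Here 111787 of 112092 transcripts were matched to GENCODE M21 genes, leaving 0.0488% to 0.18% of a library's counts unmatched. Counts were summed per gene and rounded. Each of 19 comparisons was fitted with edgeR 4.0.16 in R 4.3.3 (TMM scaling, quasi-likelihood test) on genes that reached 10 counts in 4 or more of its libraries, with Benjamini-Hochberg adjustment over all genes tested and a call at an adjusted p under 0.05. The standard error was taken from the fold change and the F statistic. CPM are TMM-scaled over 48 libraries. Paralog ratios were compared with two-sided exact permutation tests. The members and gene lists were chosen with earlier results of these data known.

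Named throughout were Rplp0, Rps3, Rpl13a, Rplp1, Rplp2, Rpl5, Rpl11, Rpsa, Rps3a1, the paralogs and their partners, the members that passed no filter, the 5 highest and 5 lowest by median TPM, and in each comparison up to 3 called members of highest and lowest change; other names were chosen after their values had been seen, and some members that this rule names are not reported here. Replicate numbers paired the WT libraries in 3 cell type comparisons, where libraries with the same number deviated together in every pair, by the correlation of their distances from the group mean (at least 0.123 for CD8 and CD4 TILs, 0.433 for CD8 and CD4 TDLNs and 0.118 for CD45 and T-cell TILs). Alternatives were DESeq2 1.42.0, no count filter, scaling without the family, on T-lineage genes (6 comparisons) or on short genes, pseudogenes or sequence-matched copies added, the study's fold rule (an absolute log2 fold change above 1), a replicate block and leaving out each library. On simulated data for TILs against TDLNs of WT CD4 cells, 75.3% of genes with a log2 change of 2 and 12.2% of those with a log2 change of 1 were recovered among 13801 genes. No pair of libraries within a group agreed within sampling noise, the smallest chi-square per degree of freedom being 19.3 over 72 pairs. Coordinates are 1-based.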

Additional observations from a re-analysis of the deposited data

Results flagged for a closer look

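Of 156 groups of 4 libraries checked over the named members and the family share, 6 held a library whose gap to its nearest neighbour exceeded Dixon's 95% critical value when divided by the group's range. Chance alone gives about 1 such group in 20. Rps27l was low in WT CD4 TDLNs replicate 4, at a log2 CPM of 5.61 (48.4 CPM) where the nearest library had 6.11, and in Yap-cKO CD8 TILs replicate 1, at 6.33 (79.7 CPM) where the nearest had 7.28. The share of the family was low in WT CD8 TILs replicate 2, at 3.54% where the nearest had 5.76%. Yap-cKO CD8 TILs replicate 4 was high in 3 members, with a log2 CPM of 7.19 for Rps27rt (145 CPM, nearest 5.97), 10.58 for Rplp0 (nearest 10.2) and 10.08 for Rps3 (nearest 9.52). That library also held the largest family share of its group, at 7.15%.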

How the results depend on the processing

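The 53 called values of named members kept direction and call with DESeq2 in 53, with pseudogenes added in 53, without the family in the scaling in 52, on short genes in 44, without a count filter in 41, with a replicate block in 40 and by the study's fold rule in 22. Scaled on T-lineage genes 7 of 17 kept both and 7 turned direction, and 25 of the 53 were lost without at least 1 library. The scaling on short genes and the added copies were chosen after seeing the data. In numbers of called members, DESeq2 gave 2 for genotype in CD8 TILs, 1 in CD45 TDLNs, 8 for tissue in WT CD8 and 1 for the CD45 interaction. Of all genes it called 23.5%, 0.119%, 46.4% and 0.807%. No count filter gave 5 for tissue in WT CD4, 1 in Yap-cKO CD8, 13 in Yap-cKO CD45 and 1 for the CD8 interaction. Of all genes 29.2%, 11.6%, 30.7% and 1.62% were then called. A replicate block gave 2 for tissue in WT CD8 and 0 in Yap-cKO CD8. It gave 8 for CD45 against T-cell TILs, 7 for CD8 against CD4 TDLNs, 0 as before for CD8 against CD4 TILs and 21 for CD45 against T-cell TDLNs. Of all genes 37.2%, 12.9%, 53.3%, 12.5%, 0.75% and 32.9% were called with the block. Outside the 3 paired comparisons the numbers were taken only as names of libraries. Some same-numbered libraries there had negative correlations, except for tissue in WT CD4. In that comparison they were 0.0141 to 0.486, and the block gave 9 calls, as without it (53.9% of all genes). The study's fold rule gave 1, 3 and 5 for tissue in WT CD4, CD8 and CD45, 1 and 6 in Yap-cKO CD8 and CD45, and 1 and 9 for CD45 against T-cell TILs and TDLNs. Of all genes it called 37.3%, 37.7% and 39.9%, then 15.9% and 40.3%, and then 34.3% and 25.2%. Scaling on T-lineage genes gave 10 and 68 for genotype in CD4 and CD8 TILs and 74 and 65 for tissue in WT CD4 and CD8. On that scale 25.4% and 40.5% and then 58.4% and 63.9% of all genes were called. Scaling on short genes gave 69, 64 and 27 for tissue in WT CD4, CD8 and CD45, 70, 45 and 79 in Yap-cKO, and 8 and 70 for CD45 against T-cell TILs and TDLNs. There 61.9%, 48.4% and 61.5%, then 22.9%, 23.4% and 61.1%, and then 40.6% and 31.5% of all genes were called. As a share of TPM the family's median was 11.4%.

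On T-lineage genes direction turned for genotype in CD8 TILs in Rpl3 and Rps3 (both −1.12). For tissue in WT CD4 it turned in Rpl10 (1.43), Rpl11 (1.67), Rpl13a (1.51), Rpl3 (1.06), Rpl36a (1.34), Rpl7 (1.63), Rpl7l1 (1.71), Rplp0 (1.08), Rplp1 (1.82), Rplp2 (1.70), Rps27 (0.76), Rps27rt (1.05), Rps3 (1.26), Rps4x (1.64) and Rpsa (1.56). In WT CD8 it turned in Rpl11 (1.33), Rpl13a (1.23), Rpl22 (1.69), Rpl3 (0.83), Rpl36a (1.26), Rpl39 (1.61), Rpl7l1 (1.72), Rplp0 (0.60), Rplp1 (1.27), Rplp2 (1.23), Rps27 (0.36) and Rps4x (1.64). On short genes it turned in WT CD4 in Rpl22 (−0.64), Rpl22l1 (−0.59) and Rpl39 (−0.62), and in WT CD45 in Rpl7 (−0.15), Rps3 (−0.68), Rps3a1 (−0.01) and Rpsa (−0.67). These scalings moved the median of all genes, and the cause was not tested further. Leaving out 1 library gave 0 to 2 calls for genotype in CD4 TILs, 0 to 1 in CD8 TILs, 4 to 10, 2 to 29 and 5 to 16 for tissue in WT CD4, CD8 and CD45, 1 to 2, 0 to 5 and 9 to 27 in Yap-cKO, 3 to 5 for CD45 against T-cell TILs, 0 to 35 for CD8 against CD4 TDLNs and 10 to 61 for CD45 against T-cell TDLNs. Depth was 12656510 to 24213892 counts, and Rpl3l, Rpl39l and Rpl9-ps6 passed the count filter in some comparisons only.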
